A study of Mus musculus with 2 samples.

Results

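Circular RNAs (circRNAs) of 10 host genes are described here: the histone acetyltransferases Kat6a, Kat6b, Kat7, Kat2b, Crebbp and Ep300, the nuclear receptor coactivators Ncoa1 and Ncoa2, and the complex subunits Ep400 and Atxn7. Every entry whose host gene is exactly one of these names was taken from the lists of both libraries. They are 10 of 7256 host genes with junction reads, and they hold 108 of the 26265 circRNAs with a junction read in either library.

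The libraries came from intestinal cells of Lgr5GFP-CreERT2 mice aged 2 months, which carry a GFP and CreERT2 cassette at Lgr5, a receptor gene of crypt base stem cells. Cells were sorted by flow cytometry into a positive fraction, labelled Lgr5+ ISC, and a negative fraction, labelled Lgr5- non-ISC. Both fractions come from the same reporter strain, and the number of animals is not given in the labels. Each fraction had 1 library of ribosome-depleted, RNase R-treated RNA, so the differences below have no replicate behind them and no test gives a p-value.

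A circRNA forms when a splice donor is joined backwards to the acceptor of an upstream exon, which leaves a back-splice junction that sequencing reads can cross. Exons with long flanking introns, often the second exon of a gene, are commonly used. One gene can give several circRNAs that share an acceptor or a donor, so the share of each among the gene's junction reads describes how its back-splicing is divided. Histone acetyltransferases place acetyl groups on histone tails and open chromatin for transcription. The MYST enzymes (Kat6a, Kat6b and Kat7), the GCN5-related enzyme Kat2b and the paralogous coactivators Crebbp and Ep300 are its main families, and most of them work inside large complexes.

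The junctions that carry the results are printed below, 5′ to 3′ on the strand of the gene, from GENCODE M21 transcript sequences (GRCm38). Lower case is the end of the last exon of the circle and capitals mark the start of its first exon, so the case change is the back-splice point. Junctions of circles that hold untranslated sequence are shown with 15 nt on each side and the others with 25 nt. Within a host the same capitals mean a shared acceptor and the same lower case letters a shared donor. Kat6b is on the plus strand (chr14:21626719-21637640 for exons 8 to 12, chr14:21516626-21517498 for exon 2), and its circles share neither end.
Kat6b exons 8 to 12: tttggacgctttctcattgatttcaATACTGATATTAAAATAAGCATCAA
Kat6b exon 2: catgagaaagaccagGTCTTGGTTTCCTAA

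Ep400 is on the minus strand (chr5:110755397-110756766 for exon 2, chr5:110753804-110756766 for exons 2 to 3), and both circles start at exon 2.
Ep400 exon 2: gttatcaacgatgagGGGAACAGTACATTG
Ep400 exons 2 to 3: cagcaaccgtttcagGGGAACAGTACATTG

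Atxn7 is on the plus strand (chr14:13995007-14013655 for exons 2 to 4, chr14:14013073-14013655 for exons 3 to 4), and both circles end at exon 4.
Atxn7 exons 2 to 4: ggctctgccgggaagATTAAGAAGGAAGGA
Atxn7 exons 3 to 4: ggctctgccgggaagGAGCGGAAAGAATGT

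Ncoa2 is on the minus strand (chr1:13221307-13286025 for exons 2 to 4, chr1:13221307-13224713 for exons 3 to 4), and its pair also shares the donor of exon 4.
Ncoa2 exons 2 to 4: agatcaaagagcaagATTTTCCTCGCATCT
Ncoa2 exons 3 to 4: agatcaaagagcaagTTGCTGATATGTGTT

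Crebbp is on the minus strand (chr16:4137366-4138985 for exons 4 to 5, chr16:4179424-4180133 for exon 2, chr16:4154857-4180133 for exons 2 to 3), and the exon 2 circle of its paralogue Ep300 (chr15:81600908-81601545, plus strand) is shown with them for comparison.
Crebbp exons 4 to 5: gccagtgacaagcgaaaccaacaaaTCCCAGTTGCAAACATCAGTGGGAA
Crebbp exon 2: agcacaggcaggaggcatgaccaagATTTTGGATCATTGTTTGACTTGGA
Crebbp exons 2 to 3: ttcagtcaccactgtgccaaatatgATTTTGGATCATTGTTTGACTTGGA
Ep300 exon 2: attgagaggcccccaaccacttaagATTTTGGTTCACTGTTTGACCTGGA

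The start of exon 2 is identical at 22 of 25 positions between Crebbp and Ep300, whereas the ends of exon 2 match at 5 of 25. In the paralogues Kat6a and Kat6b, the donor side of the leading circles that hold the start codon matches at 13 of 15 positions and the acceptor side at 7 of 15. A read across either junction therefore holds bases that tell the paralogues apart.

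The library labelled ISC held 156582 junction reads and the library labelled non-ISC 76331. A count of 0 can stand for up to 3 reads, which per 1000000 junction reads is 19.2 labelled ISC, against 39.3 labelled non-ISC. The calls and intervals below nevertheless take it as 0 reads, so a call against 0 reads is less sure. The markers of the sorted cells went against the labels. Lgr5 had 0 reads labelled ISC, against 7 labelled non-ISC, and 8 of 9 stem cell markers with reads summed to 33 reads against 171. Of 10 epithelial markers 9 had reads, with 7 reads labelled ISC against 303 labelled non-ISC, and Epcam was at 0 reads against 59. Markers of T cells had reads for 12 of 14 genes, all 12 called higher labelled ISC, with 7246 reads against 131. Enterocyte markers had 5 reads labelled ISC against 378 labelled non-ISC, and goblet and Paneth cell markers 2 against 57. Stromal and endothelial markers had 73 reads labelled ISC against 7, of which the single gene Pecam1 gave 67 and 7. Myeloid markers had 9 against 3 and B cell markers 3 against 3, and none of either list reached 10 reads over both libraries. These marker levels differ between the libraries together with every result below, and their part in the results was not tested. The groups are therefore named by their labels throughout, and fewer cells of a type and less RNA per cell cannot be told apart.

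Summed over the 10 host genes there were 1467 junction reads labelled ISC, against 841 labelled non-ISC. Per 1000000 junction reads of each library this is 9369 labelled ISC, against 11018 labelled non-ISC. The ratio, here and below labelled ISC over labelled non-ISC per total junction reads, was 0.850 with an exact 95% interval of 0.781 to 0.927. Intervals cover counting error only. The median log2 ratio of the 10 hosts was 0.08, beside 0.16 over all 2920 host genes that reached 10 reads. To be called higher or lower, a host or circRNA needed 10 or more reads summed over the libraries, a ratio of 2 or above (0.5 or below), and an interval without 1. By this rule 2 of the 10 hosts were higher, Kat7 and Kat2b, where 26.7% of all hosts were. Another 2 were lower, Ep400 and Atxn7, where 22.7% of all hosts were, and 6 were not called. These shares are near the background, so the totals of the hosts do not stand apart as a set. The direction of the totals depended on the scaling. With library totals worked out from the deposited RPM every ratio is higher by 1.49 on the log2 scale, and the ratios of Ep400 and Atxn7 became 1.36 and 1.09.

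**Figure D1:**
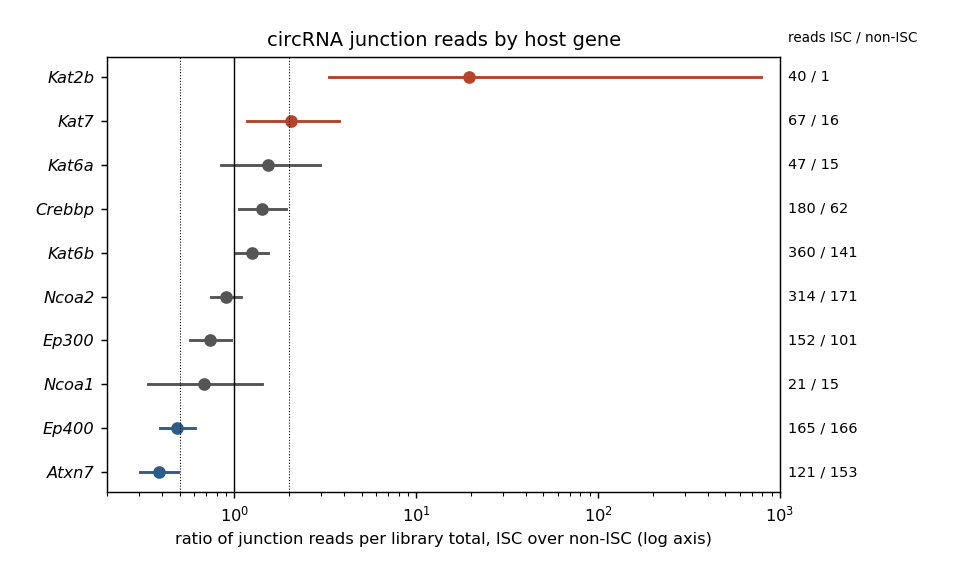
Ratio of junction reads per library junction total, labelled ISC over labelled non-ISC, for each of the 10 host genes on a log axis, with exact 95% intervals of counting error. Kat2b and Kat7 lie above 2, Ep400 and Atxn7 lie below 0.5, and the other 6 lie between.

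Of the 108 circRNAs, 82 had reads labelled ISC and 59 had reads labelled non-ISC. Reads in both were found for 33 of them, beside 4375 of all 26265 circRNAs. These 33 held 87.4% of the hosts' reads labelled ISC and 84.8% of those labelled non-ISC. Of the 31 circRNAs that reached 10 reads, 8 were called higher, where 32.4% of all circRNAs were. A further 8 were called lower, where 23% of all circRNAs were, and 15 were not called. Of the 8 higher, 4 were not listed for non-ISC, and of the 8 lower, 1 was not listed for ISC. The shares of reads and the missing entries were not worked out over all circRNAs, so nothing particular to these hosts is read from them. A missing entry need not mean 0 reads, so those circRNAs are given as reads with no fold. Their calls take the missing entry as 0 reads. At 3 reads some would be lost, since a Kat7 circle with 14 reads labelled ISC and 3 labelled non-ISC was not called.

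The circles were mostly small and built from annotated exons. Both ends lay on annotated exon ends for circRNAs holding 96.2% of the hosts' reads labelled ISC and 96.7% of those labelled non-ISC. Over all circRNAs these values were 89.8% and 90.1%. Counted by circRNA they were 73.2% labelled ISC and 84.7% labelled non-ISC for the hosts, beside 73.7% and 76.1% of all. Junction reads show only the ends of a circle, so lengths, here and below, assume that it holds every annotated exon between them. The 29 exonic circRNAs that reached 10 reads spanned a median of 3 exons and 578 nt of spliced sequence, between 272 and 1629 nt. Of these 29, 11 started at exon 2, 10 held the annotated start codon and 6 had a length divisible by 3. Among all 31, 20 shared an acceptor or a donor with another of the same host.

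The leading circRNA of a host is the one with most junction reads, and it was compared in the 9 hosts that reached 10 reads in each library. Kat2b had too few. The leader differed between the libraries for 5 of these 9, Kat6b, Crebbp, Ep400, Ncoa1 and Atxn7, where it differed for 32.3% of 1101 hosts in all. Kat6a, Kat7, Ep300 and Ncoa2 had the same leader in both. By the deposited count column all 10 hosts could be compared. The leaders of Kat2b, Kat7 and Ncoa2 then also differed, with separate shares, and that of Kat6b did not differ. Crebbp and Ncoa1 had separate shares by that column too. The Crebbp leader labelled non-ISC was there a circle of exons 12 to 18, with a count of 44 but 2 junction reads. For Kat6b, Ep400 and Atxn7 the exact 95% intervals of the shares of both leaders did not overlap between libraries. These are 3 of 9 hosts, where 7.72% of all hosts met that criterion. Crebbp has a tied leader and would also meet it with the other choice, as given below. Asking for 50 reads in each library left 6 of the hosts. Their leader differed in 4, where it differed in 22.6% of 199 hosts, and had separate shares in 3, where 11.6% of hosts did. The hosts were put together with the exchange in some of them already known, so these counts describe them and support nothing further.

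**Figure D2:**
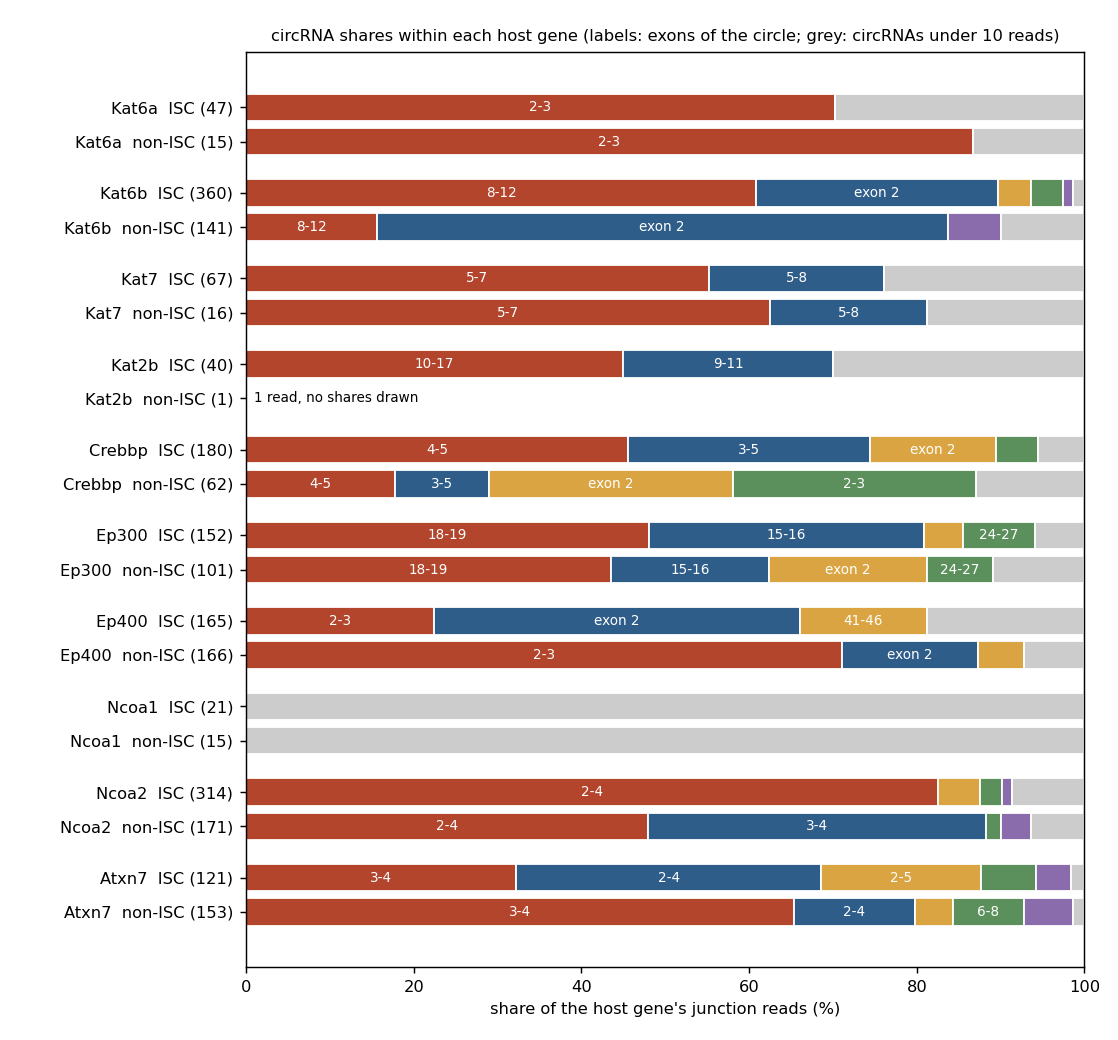
Stacked shares of each host's junction reads, in percent, with the library labelled ISC above the library labelled non-ISC and the number of reads in parentheses. Each colour is 1 circRNA within a host, labelled by its exons, and grey sums circRNAs under 10 reads; the leading segment differs between the bars of Kat6b, Crebbp, Ep400 and Atxn7, and that of Ep300 fills 48.0% and 43.6%.

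Among the MYST enzymes, Kat6b (MORF, the catalytic subunit of a complex that acetylates histone H3) gave the most circRNA reads. It ranked 53 among hosts of the library labelled ISC and 76 among those labelled non-ISC. The host had 360 reads labelled ISC and 141 labelled non-ISC, a ratio of 1.24 (1.02 to 1.52), which is not called. Exons 8 to 12 gave a circle with 219 reads labelled ISC and 22 labelled non-ISC. It made up 60.8% (55.6 to 65.9) of the Kat6b reads labelled ISC, against 15.6% (10 to 22.7) labelled non-ISC, and its ratio was 4.85 (3.12 to 7.90). This circle is 636 nt long, a multiple of 3, and covers codons 483 to 695 of 1872. A circle of exon 2 alone had 104 reads labelled ISC and 96 labelled non-ISC. Its share was 28.9% (24.3 to 33.9) labelled ISC and 68.1% (59.7 to 75.7) labelled non-ISC, and its ratio of 0.528 (0.396 to 0.704) misses the call. That exon holds 249 nt of 5′ untranslated sequence and the start codon, with codons 1 to 208. Each circle thus led in one library, with shares that do not overlap.

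The other Kat6b circles followed the position of their acceptors. Circles of exons 8 to 16 and of exons 13 to 16 had 14 reads each labelled ISC and were not listed for non-ISC. A circle from the acceptor of exon 2 to a donor at 21530365 on another transcript had 4 reads labelled ISC and 9 labelled non-ISC, a ratio of 0.217 (0.0488 to 0.776). Taken over all circles, the acceptor of exon 2 was used by 31.1% of Kat6b reads labelled ISC and 78.0% labelled non-ISC. The acceptor of exon 8 took 65.0% labelled ISC and 15.6% labelled non-ISC. The exchange rests on the junction reads. In the deposited count column one circle led in both libraries (chr14:21516626-21558828), with counts of 225 labelled ISC and 195 labelled non-ISC but 4 and 5 junction reads, and by that measure the leader of Kat6b did not differ.

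Kat6a, the paralogue of Kat6b known as MOZ, had 47 reads labelled ISC and 15 labelled non-ISC, a ratio of 1.53 (0.839 to 2.94). Its leader was in both libraries the circle of exons 2 to 3 (chr8:22861517-22862801, plus strand), which also holds the start codon. This circle had 33 reads labelled ISC and 13 labelled non-ISC, or 70.2% (55.1 to 82.7) and 86.7% (59.5 to 98.3) of the host. Its share intervals overlapped, but with 15 Kat6a reads labelled non-ISC they are wide, so no contrast with Kat6b is drawn. Kat6a circles that start at exon 8 had 10 reads labelled ISC and 2 labelled non-ISC, too few to compare.

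Kat7 (HBO1, which acetylates histone H3 and H4 near origins and promoters) had 67 reads labelled ISC and 16 labelled non-ISC, a ratio of 2.04 (1.17 to 3.77), just past the fold used. The call was lost with circRNAs of 1 library left out and over those that reached 10 reads, each at 1.91 (1.03 to 3.83), and under halved reads, at 2.01 (0.911 to 5.04). Exons 5 to 7 led in both libraries (chr11:95289772-95294645, minus strand), with 37 reads labelled ISC and 10 labelled non-ISC. This circle had a share of 55.2% (42.6 to 67.4) labelled ISC and 62.5% (35.4 to 84.8) labelled non-ISC. That of exons 5 to 8, with the same acceptor, had 14 reads labelled ISC and 3 labelled non-ISC. Circles from the acceptor of exon 2 had 14 reads labelled ISC and no entry with reads labelled non-ISC. None of the Kat7 circles passed the call singly.

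Kat2b (PCAF, an acetyltransferase of SAGA-like complexes) was the most one-sided of the 10 hosts in junction reads, but not in the deposited count column. Its counts there were 123 labelled ISC and 82 labelled non-ISC, a ratio of 2.06 (1.54 to 2.76) with library totals from the RPM. In junction reads Kat2b had 40 reads on 7 circRNAs labelled ISC and 1 read on 1 circRNA labelled non-ISC. This is a ratio of 19.5 (3.30 to 789), and no circRNA had reads in both. Exons 10 to 17 (chr17:53653022-53665907, plus strand) had 18 reads labelled ISC. In the library labelled non-ISC this circle is listed with 0 junction reads and a count of 29. With 3 reads set for the 0, its ratio in junction reads was 2.92, a value that leaves out counting error. Exons 9 to 11 had 10 reads labelled ISC and no entry labelled non-ISC. With 1 read labelled non-ISC the leader cannot be compared in junction reads, and by the count column it differed.

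Crebbp (CBP, a coactivator that acetylates histone H3 at enhancers) had most reads on circles that end at exon 5 in the library labelled ISC, and on circles that start at exon 2 in the library labelled non-ISC. The host had 180 reads labelled ISC and 62 labelled non-ISC, a ratio of 1.42 (1.05 to 1.92), not called. Exons 4 to 5 led in the library labelled ISC with 82 reads, against 11 reads labelled non-ISC, or 45.6% (38.1 to 53.1) against 17.7% (9.20 to 29.5), and a ratio of 3.63 (1.93 to 7.56). Exons 3 to 5 followed with 52 reads labelled ISC and 7 labelled non-ISC, a ratio of 3.62 (1.64 to 9.45). Both use the donor of exon 5, which took 75.6% (68.6 to 81.6) of Crebbp reads labelled ISC and 29.0% (18.2 to 41.9) labelled non-ISC.

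In the library labelled non-ISC the lead was tied between the circle of exon 2 and that of exons 2 to 3. The exon 2 circle had 27 reads labelled ISC and 18 labelled non-ISC, or 15% (10.1 to 21.1) and 29.0% (18.2 to 41.9), with overlapping intervals. The circle of exons 2 to 3 had 9 reads labelled ISC and 18 labelled non-ISC, a share of 5% (2.31 to 9.28) and 29.0%, and a ratio of 0.244 (0.0965 to 0.571). The acceptor of exon 2 took 21.1% of reads labelled ISC and 58.1% labelled non-ISC. The tie was broken by reads summed over the libraries, which picks the circle of exon 2. Its shares are not separate, so Crebbp was not counted among the hosts with separate leaders. With the circle of exons 2 to 3, whose shares are separate, Crebbp would have been counted. A further circRNA inside the Crebbp locus carries another host name, with 6 reads labelled ISC and 0 labelled non-ISC, and it was not counted with Crebbp.

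Ep300 (p300, the paralogue of Crebbp) kept its leader. The host had 152 reads labelled ISC and 101 labelled non-ISC, a ratio of 0.734 (0.567 to 0.953), not called. Exons 18 to 19 (chr15:81631614-81632512) had 73 reads labelled ISC and 44 labelled non-ISC, or 48.0% (39.9 to 56.3) and 43.6% (33.7 to 53.8). Exons 15 to 16 had 50 reads labelled ISC and 19 labelled non-ISC, or 32.9% and 18.8%, and exons 24 to 27 had 13 and 8 reads in the same order. Of its circles that reached 10 reads only that of exon 2 was called, with 7 reads labelled ISC and 19 labelled non-ISC, a ratio of 0.180 (0.0638 to 0.446). Its acceptor took 5.92% (2.74 to 10.9) of Ep300 reads labelled ISC and 23.8% (15.9 to 33.3) labelled non-ISC. The exon 2 acceptors of Ep300 and Crebbp thus both had the smaller share in the library labelled ISC. The similar sequence printed above is the start of exon 2, and the intron side of these acceptors was not examined. A link between sequence and share was not tested.

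Among the nuclear receptor coactivators, Ncoa2 (TIF2, a p160 coactivator that recruits Crebbp and Ep300 to hormone receptors) gave most reads, 314 labelled ISC and 171 labelled non-ISC, a ratio of 0.895 (0.741 to 1.08). The donor of exon 4 was used by 90.4% of reads labelled ISC and 93.0% labelled non-ISC, so nearly all reads came from circles that end there and differ in their acceptor. Exons 2 to 4 led in both libraries, with 259 reads labelled ISC and 82 labelled non-ISC. This circle made up 82.5% (77.8 to 86.5) of reads labelled ISC and 48.0% (40.3 to 55.7) labelled non-ISC, with a ratio of 1.54 (1.20 to 2.00), below the fold used. Exons 3 to 4 had 69 reads labelled non-ISC, 40.4% (32.9 to 48.1) of the host, and no entry in the library labelled ISC, where 3 of 314 reads would be 0.955%. A circle from another first acceptor to that donor (exons 2 to 5 of Ncoa2-207) had 16 reads labelled ISC and no entry labelled non-ISC.

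Smaller Ncoa2 circles did not pass the call. Exons 12 to 15 had 8 reads labelled ISC and 3 labelled non-ISC, and a circle with 1 end off the annotated exons (chr1:13285969-13366661) had 4 and 6. With circRNAs without reads in both libraries left out, the ratio of Ncoa2 was 1.45, a setting that leaves out the circle of exons 3 to 4. Ncoa1 (SRC-1, its paralogue) had 21 reads labelled ISC and 15 labelled non-ISC, a ratio of 0.682 (0.335 to 1.42). Exons 8 to 10 led in the library labelled ISC with 7 reads against 1 read labelled non-ISC. Exon 16 (chr12:4274694-4275008, minus strand) led in the library labelled non-ISC with 6 reads, and had no entry labelled ISC. The shares of exon 16 do not overlap, at 0% (0 to 16.1) labelled ISC and 40% (16.3 to 67.7) labelled non-ISC. Those of exons 8 to 10 do, at 33.3% (14.6 to 57.0) and 6.67% (0.169 to 31.9), so Ncoa1 was not counted among the separate leaders.

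Ep400 (p400, the ATPase of the TIP60 acetyltransferase complex, which exchanges histone H2A variants) was lower in the library labelled ISC, with 165 reads against 166 labelled non-ISC, a ratio of 0.485 (0.388 to 0.605). The circle of exons 2 to 3, 1481 nt long, had 37 reads labelled ISC and 118 labelled non-ISC, a ratio of 0.153 (0.103 to 0.223). Its share was 22.4% (16.3 to 29.6) labelled ISC and 71.1% (63.6 to 77.8) labelled non-ISC. The circle of exon 2 alone, 1370 nt, had 72 reads labelled ISC and 27 labelled non-ISC, a ratio of 1.30 (0.825 to 2.10). It made up 43.6% (35.9 to 51.6) of reads labelled ISC and 16.3% (11 to 22.8) labelled non-ISC. Both circles hold the start codon and begin at the same acceptor, so they differ in whether exon 3 is kept in the circle.

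The acceptor of exon 2 took 66.1% (58.3 to 73.2) of Ep400 reads labelled ISC and 88.6% (82.7 to 93.0) labelled non-ISC. Exons 41 to 46 (chr5:110673109-110676938) had 25 reads labelled ISC and 9 labelled non-ISC, or 15.2% and 5.42% of the host, with a ratio of 1.35 (0.611 to 3.30). The circle of exons 2 to 3 was the single Ep400 circle that was called. In the deposited count column this circle had 72 labelled ISC and 138 labelled non-ISC, and the circle of exon 2 had 72 and 27, so they tie in the library labelled ISC. The highest count labelled non-ISC, 150, lay on a circle of exons 19 to 31 (chr5:110687798-110708337) with 4 junction reads and no entry labelled ISC. With that tie Ep400 was not counted among the separate leaders by counts, although the share intervals of both exon 2 circles stay apart. The lower call of the host was lost with median-ratio scaling, at 0.596 (0.478 to 0.744).

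Atxn7 (ataxin-7, a subunit of the SAGA deubiquitinating module) was also lower, with 121 reads labelled ISC and 153 labelled non-ISC, a ratio of 0.386 (0.301 to 0.493). The circle of exons 3 to 4 had 39 reads labelled ISC and 100 labelled non-ISC, a ratio of 0.190 (0.128 to 0.278). Its share was 32.2% (24 to 41.3) labelled ISC and 65.4% (57.3 to 72.9) labelled non-ISC. The circle of exons 2 to 4 had 44 reads labelled ISC and 22 labelled non-ISC, a ratio of 0.975 (0.572 to 1.71). It made up 36.4% (27.8 to 45.6) of reads labelled ISC and 14.4% (9.24 to 21) labelled non-ISC. Exon 2 is 5′ untranslated sequence and the start codon lies in exon 3, so both circles hold the start codon and end at the same donor.

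The acceptor of exon 2 of Atxn7 took 55.4% (46.1 to 64.4) of reads labelled ISC and 19.0% (13.1 to 26.1) labelled non-ISC. That of exon 3 took 38% labelled ISC and 71.2% labelled non-ISC. The donor of exon 4 was used by 68.6% of reads labelled ISC and 79.7% labelled non-ISC, with overlapping intervals. Of the other Atxn7 circles, exons 2 to 5 had 23 reads labelled ISC and 7 labelled non-ISC, a ratio of 1.6 (0.665 to 4.42). Exons 6 to 8 had 8 and 13 reads, a ratio of 0.300 (0.108 to 0.781), and exons 3 to 5 had 5 and 9, a ratio of 0.271 (0.0713 to 0.900), both called lower in the library labelled ISC. The call of exons 3 to 5 was lost with median-ratio scaling, at 0.333 (0.0878 to 1.11), and under halved reads it fell below the minimum. That of exons 6 to 8 was lost under halved reads, at 0.325 (0.0675 to 1.37).

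**Figure D3:**
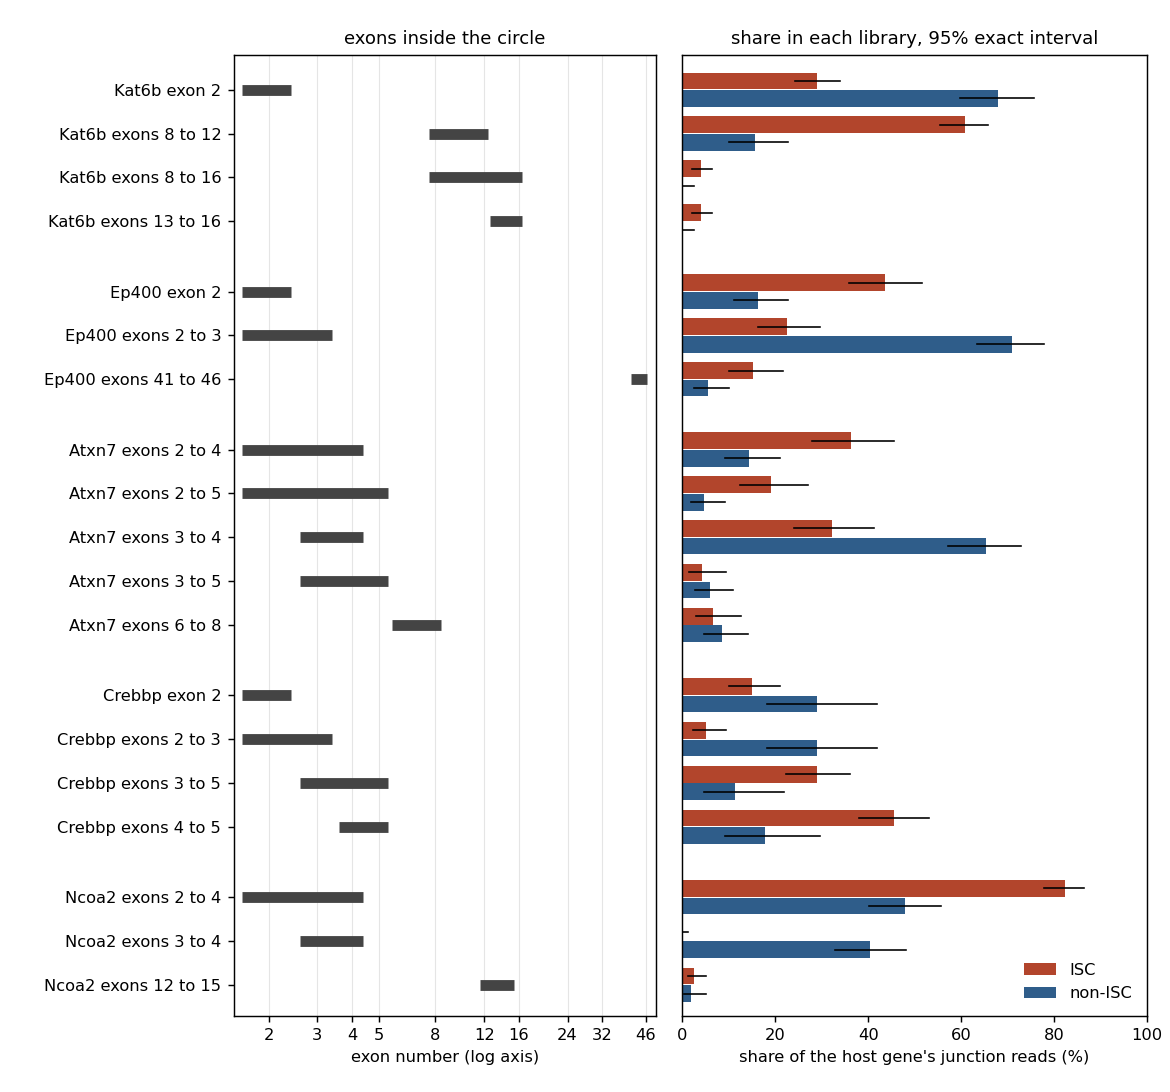
Exons held by circRNAs of 5 hosts (left, exon number on a log axis) beside their share of the host's junction reads in percent (right, labelled ISC above labelled non-ISC, exact 95% intervals, missing entries drawn at 0). The leading circles of Kat6b lie apart along the gene, those of Ep400 start at the same exon and those of Atxn7 end at the same exon.

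The exchanges, which are changes of share, thus took different forms. In Kat6b the leaders share no exon, in Ep400 they share the acceptor and in Atxn7 they share the donor. In Ncoa2 a second acceptor took reads labelled non-ISC without a change of leader. By ratio, the Ep400 and Atxn7 leaders labelled non-ISC were called lower, at 0.153 and 0.190, and those labelled ISC were not called, at 1.30 and 0.975. In Kat6b the leader labelled ISC was called higher, at 4.85, and the other was not called, at 0.528. The acceptor of exon 2 had a smaller share labelled ISC in Kat6b, Crebbp, Ep300 and Ep400 and a larger one in Atxn7 and Ncoa2, with intervals that do not overlap in any of the 6, so no single direction held. Circles of 1 exon held 14.9% (13.1 to 16.9) of the exonic reads of the 10 hosts labelled ISC, against 20.7% (17.9 to 23.6) labelled non-ISC. Kat6b alone gave 104 of these 210 single-exon reads labelled ISC and 96 of the 166 labelled non-ISC. The summed difference therefore leans on that host and is not read as a trait of the set. Single-exon circles had reads in 5 hosts. Their share was lower in the library labelled ISC for Kat6b, at 29.5% against 75.6% labelled non-ISC, and for Ep300, at 4.67% (1.90 to 9.38) against 19.2% (12 to 28.3). It was 15.5% against 30% for Crebbp, with overlapping intervals. For Ncoa1 it was 0% (0 to 17.6) of 19 exonic reads against 40% (16.3 to 67.7) of 15, which just overlap. Over all 21 Ncoa1 reads labelled ISC the interval is 0 to 16.1 and they do not, as given above, so this contrast rests on which reads are counted. Ep400 went the other way, at 47.1% labelled ISC against 16.3% labelled non-ISC.

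The size of the exchange was summarised as the part of a host's reads that would have to change circRNA to turn one library's shares into the other's. It was 53.5% for Ep400, 53.3% for Kat6b, 51.0% for Crebbp, 49.0% for Ncoa2, 38.1% for Atxn7 and 22.8% for Ep300. The hosts were put together with the exchange in some of them known, so a large value is in part a matter of their choice and the comparison is a description. The median of these 6 hosts was 50%, beside 17.8% over the 199 hosts of that depth, where the quartiles were 10.3% and 36.4%. Counting error adds to this measure and was not taken out. Outside the 10 hosts, the genes with a value nearest to that of Ep400 were Ap3b1, a subunit of the AP-3 adaptor, at 54.0%, the chromatin reader gene Mllt10 at 51.3% and the kinase gene Taok1 at 50.5%.

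**Figure D4:**
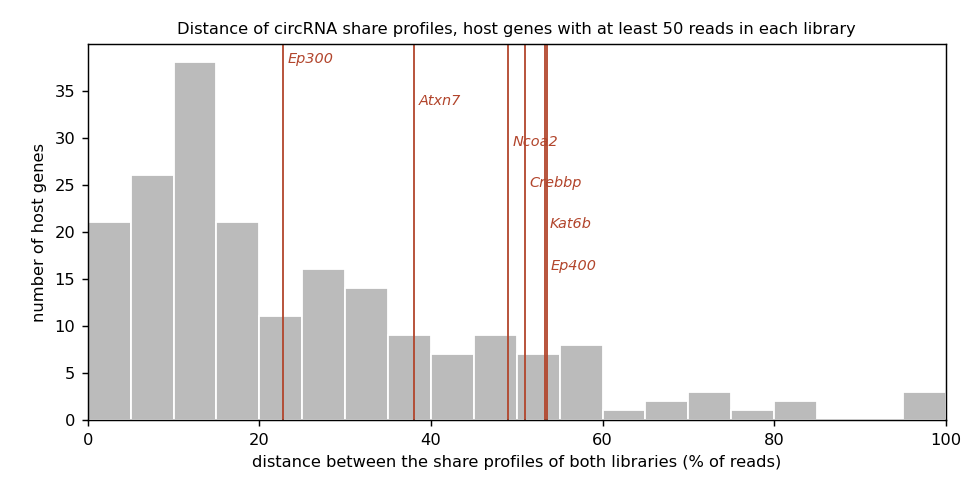
Difference between the share profiles of the libraries, in percent of a host's junction reads, for the 199 host genes that reached 50 reads in each library (grey bars, number of genes), with lines at the 6 hosts described here. Ep400, Kat6b, Crebbp and Ncoa2 lie between 49.0% and 53.5%, above the upper quartile of 36.4%, in a set chosen with the exchange of some hosts known.

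Other genes of these pathways were described by 6 lists of 90 genes, of which 54 had reads and 27 reached 10 reads. Of those 27, 6 were called higher labelled ISC, 6 lower and 15 neither, beside 26.7% and 22.7% of all hosts. Among other acetyltransferases 1 of 4 was called, Mcm3ap, with 15 reads labelled ISC and 0 labelled non-ISC, and the list had a median log2 ratio of -0.18. Of 2 partners of Kat6a, Kat6b and Kat7 with enough reads, Brpf3, a scaffold that directs Kat7 to histone H3, was lower with 5 reads labelled ISC and 34 labelled non-ISC, a ratio of 0.0717 (0.0219 to 0.184), and the median of the pair was -2.16. Among 4 subunits of the complex of Ep400 the chromodomain protein gene Morf4l1 was higher, with 40 reads against 0 labelled non-ISC, and the median was 0.06.

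For the SAGA and PCAF complexes that hold Atxn7 and Kat2b, 2 genes had enough reads. Atxn7l1, a paralogue of Atxn7, had 12 reads labelled ISC and 0 labelled non-ISC. Supt3, a core SAGA subunit, had 17 and 18, a ratio of 0.460 (0.223 to 0.947). The median of this list was 1.25 with 0.5 read added and -0.08 with the 0 set to 3 reads, so it has no settled sign. In the MSL and NSL complexes, which hold another MYST enzyme, Kansl1l was higher with 339 reads labelled ISC and 13 labelled non-ISC, a ratio of 12.7 (7.33 to 24.1). Kansl3, with 5 reads against 13, and Phf20l1, with 1 against 11, were lower, and the median of the 6 genes was 0.05.

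The opposing deacetylases and corepressors had 9 genes with enough reads and a median log2 ratio of -0.25. Tbl1xr1, an exchange factor of corepressor complexes, had 17 reads labelled ISC and 0 labelled non-ISC, and the class II deacetylase Hdac9 had 15 and 0. Its relative Hdac4 was lower, with 32 reads labelled ISC and 35 labelled non-ISC, a ratio of 0.446 (0.267 to 0.741). The corepressor Rcor1 was lower with 25 and 32 reads, a ratio of 0.381 (0.216 to 0.663). The partner genes thus moved in both directions, as the 10 hosts did.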

How the data were processed

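Per the labels' protocols, ribosomal RNA was removed, linear RNA was digested with RNase R, and the rest was cut to about 200 bp and read as pairs of 150 nt. Trimmomatic 0.36, FastQC and mm9 are named in the submitters' processing notes, and no aligner or circRNA caller is named there or in the headers. For each circRNA the authors deposited a count, an RPM value (that count per 1000000 reads) and a junction count, per the file headers. Junction counts were used, since shares within a host need reads that mark 1 circRNA. The deposited count and RPM served as alternatives. Junction ends fell on GENCODE M21 exon starts for 79.4% of circRNAs labelled ISC and 81.1% labelled non-ISC, and on ends shifted by 1 nt for at most 0.320%, so coordinates are given as GRCm38, counted from 1. Exons are numbered along 1 transcript per host.

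Shares have exact binomial (Clopper-Pearson) intervals and ratios exact conditional ones, at 95%. Both mates of a pair can cross a junction, so intervals may be too narrow. Entries without a host name were left out of host comparisons. The call rule was tested on simulated libraries that hold counting error only, so variation between libraries was not covered. The members and lists were chosen with earlier results of these data known. Named are all 10 hosts, their circRNAs that lead a library or have at least 10 reads, called genes of the lists up to 4 per list, and the 3 hosts with a size of exchange nearest to the largest. Python 3.11.15, pandas 2.3.3, NumPy 2.4.6, SciPy 1.17.1 and matplotlib 3.10.9 were used.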

Additional observations from a re-analysis of the deposited data

Results flagged for a closer look

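In the library labelled non-ISC, 10 entries of these hosts had a deposited count but 0 junction reads, a signal outside the junction measure used for the comparisons. They are 10 of the 69 entries of these hosts, or 14.5%, where 6122 of all 18324 entries labelled non-ISC, or 33.4%, were of this kind, so nothing particular to these hosts is read from them. No entry labelled ISC was of this kind. The largest was a Kat6a entry (chr8:22929216-22932714, exons 14 to 16) with a count of 156. Kat2b had 3 such entries, with counts of 29, 21 and 8, and the one with 29 is the circle of exons 10 to 17 that had 18 junction reads labelled ISC. Ncoa2 had entries with counts of 35 and 9, Ncoa1 had one of 26, Ep400 one of 23, Atxn7 one of 15 and Ep300 one of 6. Apart from that Kat2b circle, none of them had an entry in the library labelled ISC. What these counts hold was not tested.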

How the results depend on the processing

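The ratio summed over the 10 hosts, 0.850 as reported, was 2.40 with library totals from the RPM values, 1.05 with median-ratio scaling and 1.83 from the count column, the first of which shifts every log2 ratio by 1.49 and the second by 0.30. Hosts called higher, 2 as reported, were 7 with RPM totals, 7 from the count column, 0 over circRNAs with reads in both libraries, 1 with junction reads halved and 1 with a minimum of 50 reads. Hosts called lower, also 2, were 0 with RPM totals, 1 with median-ratio scaling and 0 from the count column. Ep400 reversed to 1.36 with RPM totals and 1.56 from the count column, and Atxn7 to 1.09 and 1.03. CircRNAs called higher, 8 as reported, were 19 with RPM totals, 39 from the count column, 3 with reads halved and 3 with a minimum of 50, and those called lower, also 8, were 2, 15, 5 and 3 in the same order. Hosts with separate leaders numbered 6 in place of 3 from the count column, without Kat6b, whose leader was the same, and without Ep400, whose leader was tied. Shares do not depend on the library total: with both ends required on exon ends 27 of 28 moved by less than their interval, and with circRNAs of 1 library left out 21 of 26, whereas 23 of 28 moved in the count column. No paired analysis was possible because each group had 1 library, and no library could be left out. Depth limits Kat2b and Ncoa1 most.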
